A study of Mus musculus with 6 samples.

Results

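Interstitial stromal cells were examined in single-cell RNA profiles of whole mouse testes. A barcode, the tag of 1 droplet, counted as a stromal cell when the unique molecular identifiers (UMIs, counted RNA molecules) of 10 genes, Dcn, Igfbp6, Col1a1, Col1a2, Col3a1, Lum, Dpt, Pdgfra, Tcf21 and Mgp, summed to at least 5 and to at least 0.4% of its UMIs. The summed UMIs of 9 smooth muscle and peritubular genes (Acta2, Myh11, Tagln, Actg2, Cnn1, Mylk, Lmod1, Synpo2 and Cyp26b1) had to stay under 0.4%, and those of the spermatid genes Prm1, Prm2, Tnp1 and Tnp2 under 5%. The cells were therefore chosen by measured values of these genes, which are described below and not tested. Of 68155 barcodes with at least 500 UMIs and under 20% mitochondrial UMIs, 497 met the rule.

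The 6 libraries came from 3 male C57BL/6J mice given nicotine at 200 µg/mL in their drinking water from 3 weeks of age for 8 weeks (Nicotine) and 3 male C57BL/6J mice on normal feeding (Control). All mice were 11 weeks old at sampling, and the testes of each mouse were minced, digested and pooled into 1 library on the 10x Chromium 3' platform, which counts RNA from the ends of transcripts. The series asks how nicotine exposure alters the cell makeup and transcription of the testis. The mouse was the replicate in every comparison, with n = 3 per group.

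The interstitium of the testis lies between the seminiferous tubules and holds Leydig cells, vessels, macrophages and mesenchymal stromal cells that secrete collagen and proteoglycans. Stromal cells that carry Pdgfra and Tcf21 are known in mouse as relatives of the steroidogenic Leydig lineage, and the tubules themselves are wrapped by peritubular myoid cells that contract. Nicotine acts on nicotinic acetylcholine receptors, which are ion channels built of several subunits.

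The libraries held between 10823 and 12317 barcodes each, and library totals ran from 67853893 UMIs in the shallowest Nicotine library to 88329607 UMIs in the deepest Control library. Stromal cells were shallow, with between 500 and 8363 UMIs and a median of 1846. Their summed UMIs were 104985, 151643 and 106845 in the Nicotine mice and 200698, 132886 and 282638 in the Control mice. The count behind each stromal value was therefore lower in Nicotine mice 1 and 3 than in every Control mouse. Of the stromal barcodes, 10 also occurred as a barcode in another library, and 0 of them were stromal in more than 1 library.

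The rule genes were led by Dcn, which encodes decorin, a proteoglycan that binds collagen fibrils (chromosome 10, 97479609 to 97518143, plus strand, GRCm38). Dcn had a UMI in 484 of the 497 cells and supplied 49.9% of the UMIs of the 10 stromal genes. Its level in CPM, the count per 1000000 stromal UMIs of a mouse, was 6601, 7570 and 6336 in the Nicotine mice and 6368, 7713 and 7409 in the Control mice, so the groups overlapped. Igfbp6, which encodes a binding protein for insulin-like growth factors, had a UMI in 426 cells and stood at 1686, 2137 and 1966 CPM in the Nicotine mice and 1854, 1911 and 1939 CPM in the Control mice. Mgp, an inhibitor of matrix calcification, was found in 400 cells, with 1630 ± 199 CPM in Nicotine mice and 1598 ± 83.7 CPM in Control mice (SD, n = 3 each).

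The collagen genes were found in fewer of these shallow cells. The type I collagen chains Col1a2 and Col1a1 had a UMI in 403 and 316 cells, and the type III collagen gene Col3a1 in 329. Pdgfra, the receptor for platelet-derived growth factor, was found in 297 cells, and its level was 622 ± 71.6 CPM in Nicotine mice and 618 ± 45.7 CPM in Control mice. The transcription factor Tcf21 was found in 134 cells, with 178 ± 41.5 CPM in Nicotine mice and 184 ± 59.6 CPM in Control mice. Lum and Dpt, matrix proteins that mark fibroblasts in many organs, had a UMI in 31 and 16 cells, and Dpt was at 0 in Nicotine mouse 3 and Control mouse 2. Of the 10 rule genes, 8 had a UMI in more than 100 cells each, while Lum and Dpt were rare. The rule chose the cells by the sum of these genes, so these counts do not test the label of the part.

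**Figure D1:**
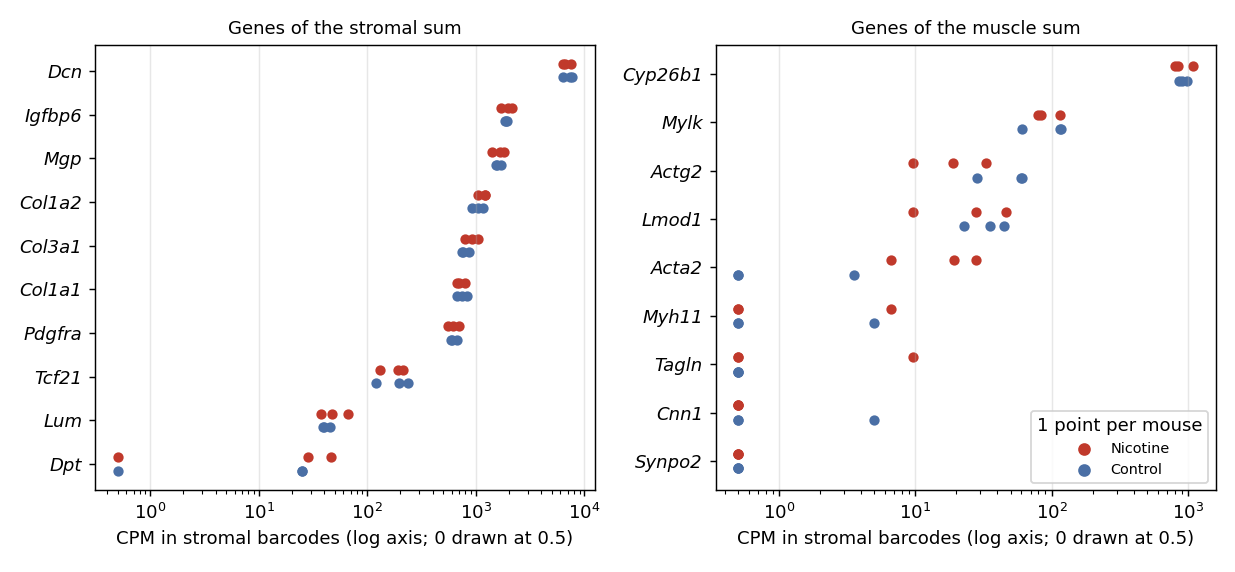
Levels in stromal cells of the 10 stromal rule genes (left panel) and the 9 muscle genes that the rule limited (right panel), in CPM on a log axis with 0 drawn at 0.5, with 1 point per mouse and Nicotine above Control for each gene. Dcn is at 6336 CPM or more in every mouse, Dpt is at 0 in 1 mouse of each group, and Cyp26b1 is at 805 CPM or more in every mouse while Synpo2 is at 0 in all.

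The 9 muscle genes, which the rule limited but did not remove, ran from absent to common. Acta2, the smooth muscle actin, had 7 UMIs in all members, Myh11 had 2, Tagln and Cnn1 had 1 each and Synpo2 had 0. Mylk, a myosin kinase, had 97 UMIs in 76 cells, the enteric actin Actg2 had 36 in 31 cells and the actin nucleator Lmod1 had 33 in 30 cells, so these were found in about as many cells as Lum or in more. Cyp26b1, which encodes an enzyme that breaks down retinoic acid, had 915 UMIs in 276 cells and made up 83.8% of the UMIs of the 9 muscle genes. It stood at 848, 1088 and 805 CPM in the Nicotine mice and 912, 858 and 984 CPM in the Control mice. A further 28 barcodes met the stromal threshold and were left out because their muscle sum reached 0.4%. In those 28 barcodes Cyp26b1 gave 94.6% of the muscle UMIs, Acta2 was at 0, and Dcn was at 3830 CPM. Only 2 barcodes in the series passed the same kind of gate for muscle genes without the stromal genes, so a comparison of stromal with muscle cells was not made.

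The thresholds lay within a continuous range. The stromal sum ran from 0.413% to 4.87% of UMIs with a median of 1.34%, and 47 cells lay between 0.4% and 0.6%. At the lower count limit, 13 members had exactly 5 stromal UMIs, and 11 barcodes just outside had 4 UMIs at 0.4% or more. A further 27 barcodes had at least 5 stromal UMIs but only 0.3% to 0.4%. Of the members, 94 carried between 1% and 5% spermatid UMIs.

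Markers of endothelial cells, macrophages and Leydig cells were low in the stromal sums, and those of Sertoli and germ cells were higher. The summed endothelial list was between 0.00655% and 0.0105% of UMIs in the Nicotine mice and between 0.00602% and 0.0110% in the Control mice, with Pecam1, Tie1 and Cldn5 at 0. The macrophage list was between 0.000936% and 0.00132% in the Nicotine mice and between 0.000498% and 0.0369% in the Control mice, with Cd74, Csf1r and H2-Ab1 at 0 and Control mouse 2 the highest. The Leydig list was between 0.00374% and 0.0267% in the Nicotine mice and between 0.00349% and 0.0244% in the Control mice, and 20 of the 21 UMIs of Hsd3b6 lay in Control mouse 3. The Sertoli list was between 0.0608% and 0.0956% in the Nicotine mice and between 0.0655% and 0.0874% in the Control mice. Amh, Fshr and Rhox5 of that list were at 0. Germ cell RNA was the main foreign component. The spermatocyte list was between 0.3705% and 0.509% in the Nicotine mice and between 0.345% and 0.459% in the Control mice. The 4 spermatid genes made up 0.498%, 0.439% and 0.715% of stromal UMIs in the Nicotine mice and 1.06%, 0.511% and 0.826% in the Control mice, which overlapped.

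Background from free RNA was looked at in cells thinned to 500 UMIs each, so that depth was equal. Dcn, whose high share in stromal cells the rule fixed, then had a UMI in 3.95% of Leydig cells (mean of 6 mice). In germ cells it was found in 0.133% (mean of 6 mice). Unthinned, the values were 35.5% of Leydig cells and 0.5% of germ cells. The Leydig gate also limited the sum of the stromal genes, Dcn among them, so the Leydig share of Dcn cannot measure background. Adamts5, a secreted protease that cleaves proteoglycans, was not part of the rule and was found after thinning in 51.8% of stromal cells, 0% of Leydig cells and 0.1% of germ cells. Igf1, the insulin-like growth factor, was found after thinning in 38.5% of stromal cells, 0.337% of Leydig cells and 0.2% of germ cells.

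Stromal cells made up a small share of every testis. They were 0.571%, 0.721% and 0.545% of kept barcodes in the Nicotine mice and 0.779%, 0.714% and 1.02% in the Control mice, from 62, 78 and 63 cells and 93, 77 and 124 cells. The mean share was 0.612 ± 0.0951% in Nicotine mice and 0.837 ± 0.159% in Control mice, a log2 ratio of -0.45. Nicotine mouse 2 overlapped the Control mice, and a two-sided exact permutation test gave p = 0.2, where 3 against 3 mice cannot give less than 0.1. A count model on cell numbers (edgeR quasi-likelihood, Benjamini-Hochberg over 5 cell classes) gave -0.45 ± 0.21 on the log2 scale with adjusted p = 0.0643, so the share did not pass. The same model gave -0.87 ± 0.22 (adjusted p = 0.00396) for cells gated on Leydig genes, and the difference between the stromal and Leydig values was not tested. With mitochondrial UMIs under 5%, the Leydig gate held 16, 26 and 34 barcodes in the Nicotine mice. In the Control mice it then held 54, 55 and 33, so these counts overlapped, and the model was not rerun at this limit.

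The share among the gated stromal, muscle and Leydig barcodes showed no such order. The Leydig gate in this total was itself smaller in the Nicotine mice (43, 47 and 43 barcodes) than in the Control mice (73, 99 and 82). Other interstitial cells were not counted in it. As a percent of stromal, muscle and Leydig gates together, stromal cells were 59.0, 61.9 and 59.4 in the Nicotine mice and 55.7, 43.8 and 60.2 in the Control mice (60.1 ± 1.55 and 53.2 ± 8.50, exact permutation p = 0.3). The median UMI count of a stromal cell was 1512, 1847.5 and 1589 in the Nicotine mice and 1957, 1660 and 2133 in the Control mice, with a log2 ratio of -0.22 and exact permutation p = 0.2. The lower cell share and the lower UMI count per cell stood in the same mice, Nicotine 1 and 3, and whether depth set the share was not tested. With spermatid UMIs limited to under 1%, the log2 ratio of the share was -0.19 (exact permutation p = 0.7).

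**Figure D2:**
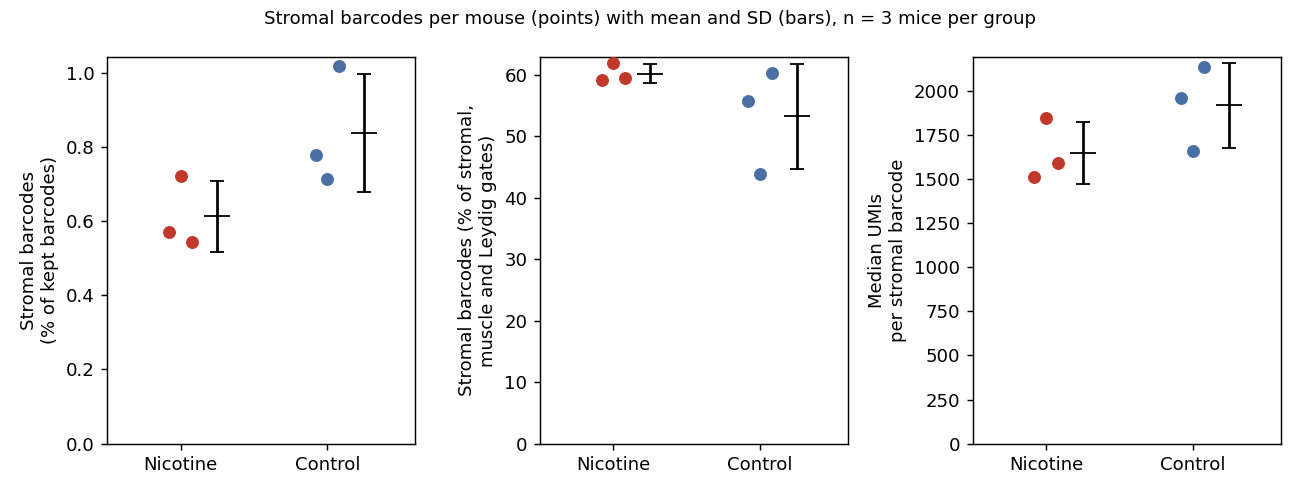
Stromal cells by mouse, with Nicotine left of Control: the share of kept barcodes in percent, the share of the stromal, muscle and Leydig gates in percent, and the median UMIs per stromal cell. Points are mice and bars give the mean with SD (n = 3), and Nicotine mouse 2 lies within the Control range of the share of kept barcodes.

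Genes outside the rule set stromal cells apart from Leydig cells of the same 6 mice. The Leydig gate held 387 barcodes in which 8 steroidogenic and Leydig genes, Insl3 and Star among them, reached 1% of UMIs. With the mouse as a block, 3429 of 5258 genes differed (edgeR quasi-likelihood, adjusted p below 0.05), with 1734 higher in stromal cells (33.0% of genes tested) and 1695 lower (32.2%). These counts include the genes that chose the gates. Since so large a share of all genes differed, the genes below are described by size. Leydig barcodes were deeper, with median UMIs between 6084 and 7992.5 per mouse.

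Matrix genes not used by the rule were higher in stromal cells. Of the basement membrane list, 15 of 15 tested genes were called higher, with a median log2 difference of 3.19, while the median over all tested genes was 0.05. Lama2, the laminin chain of mesenchymal basement membranes, averaged 889 CPM in stromal cells (765 to 998 over 6 mice) and 10.8 CPM in Leydig cells, a log2 difference of 5.88 ± 0.18 (adjusted p = 1.85e-128). Of the elastic fibre and microfibril list, 8 of 9 tested genes were higher and none was lower. Ltbp4, a binding protein for latent transforming growth factor beta, averaged 997 CPM in stromal cells and rested on 2 UMIs in Leydig cells, a ratio of 1329 with an exact 95% counting interval from 367 to 10990. Ltbp1, of the same family, had 0 UMIs in Leydig cells and was at least 237-fold higher in stromal cells, against a floor of 3 counts over the gate.

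Matrix turnover was mixed. Adamts5 (chromosome 16, 85856173 to 85901828, minus strand, GRCm38) averaged 1664 CPM in stromal cells, with 1451 CPM in the lowest mouse and 1776 CPM in the highest, and rested on 2 UMIs in Leydig cells, a ratio of 2271 with a counting interval from 628 to 18760. It was higher in stromal cells of 6 of 6 mice. Of the list of collagen processing and matrix turnover genes, 5 of 12 tested were higher and 5 were lower. Ctsb, a lysosomal protease, averaged 199 CPM in stromal cells and 804 CPM in Leydig cells (log2 -2.34 ± 0.13, adjusted p = 3.51e-52).

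Secreted factors and regulators followed. Igf1 averaged 1087 CPM in stromal cells (892 to 1231 over 6 mice) and 16.2 CPM in Leydig cells, a log2 difference of 5.81 ± 0.17 (adjusted p = 5.38e-134). Slit3, a secreted guidance cue, differed by 5.86 ± 0.17 (adjusted p = 1.24e-107), with 1192 CPM in stromal cells and 17.2 CPM in Leydig cells. Id3, an inhibitor of basic helix-loop-helix factors that bone morphogenetic proteins induce, averaged 850 CPM in stromal cells and 3.46 CPM in Leydig cells (log2 7.73 ± 0.22). Fhl2, a LIM-domain cofactor, averaged 704 CPM in stromal cells and rested on 5 UMIs in Leydig cells (log2 8.11 ± 0.24). Of the transforming growth factor and bone morphogenetic protein list, 7 of 9 tested genes were higher and 1 was lower.

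Gsn, which encodes the actin-severing protein gelsolin (chromosome 2, 35256380 to 35307892, plus strand, GRCm38), averaged 9052 CPM in stromal cells and 120 CPM in Leydig cells, a log2 difference of 5.96 ± 0.14 (adjusted p = 2.48e-164). It was found in 90.9% of stromal cells thinned to 500 UMIs. Clec3b, a plasminogen-binding protein (tetranectin), averaged 932 CPM in stromal cells and had 2 UMIs in Leydig cells, a ratio of 1247 with an interval from 344 to 10310. Thbd and Cd248, a surface anticoagulant and a surface protein of stromal cells, had 0 UMIs in Leydig cells and were at least 283-fold and at least 136-fold higher in stromal cells.

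Genes of the mitochondrial genome and most tested xenobiotic genes were lower in stromal cells. All 13 tested protein-coding genes of the mitochondrial genome were called lower, with a median log2 difference of -2.31, and mt-Co1, a subunit of cytochrome oxidase, was at 2020 CPM in stromal cells and 8315 CPM in Leydig cells. With mitochondrial UMIs under 5%, the Leydig gate kept 16 of 43, 26 of 47 and 34 of 43 barcodes in the Nicotine mice. In the Control mice it kept 54 of 73, 55 of 99 and 33 of 82. The stromal gate kept 61, 78 and 63, and 93, 77 and 122. The gate comparison was not rerun at this limit, so the part of barcodes rich in mitochondrial RNA was not tested. Of 31 tested xenobiotic and oxidative stress genes, 22 were lower and 7 were higher. Gstm1, a glutathione transferase, averaged 1309 CPM in stromal cells and 8235 CPM in Leydig cells (log2 -2.92 ± 0.12, adjusted p = 6.53e-86), a gene with close paralogs between which reads may be shared. Ptgds, prostaglandin D synthase, averaged 24.2 CPM in stromal cells and 11090 CPM in Leydig cells (log2 -9.14 ± 0.20), and the secreted carrier Lcn2 averaged 22.4 CPM in stromal cells and 9301 CPM in Leydig cells (log2 -9.15 ± 0.21). The kallikreins Klk1b21, Klk1b24 and Klk1b27 were also among the 10 genes lowest relative to Leydig cells, but they belong to a family of near-identical copies.

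In the insulin-like growth factor axis, 5 of 9 tested genes were called higher and 1 lower in stromal than in Leydig cells. The others, Igfbp7 and Igf1r among them, did not differ past the threshold. Igfbp7, which encodes a secreted growth factor binding protein, averaged 907 CPM in stromal cells and 714 CPM in Leydig cells, a log2 difference of 0.07 ± 0.11 (adjusted p = 0.571). Igf1r, the receptor for insulin-like growth factor, averaged 311 CPM in stromal cells and 287 CPM in Leydig cells (log2 -0.15 ± 0.13, adjusted p = 0.31). The estrogen receptor gene Esr1 was lower in stromal cells, with 102 CPM in stromal cells and 218 CPM in Leydig cells (log2 -1.37 ± 0.16, adjusted p = 5.56e-15). In the median gene the fitted difference minus the plain log2 ratio of CPM values was -0.27, because the fit rescales the libraries, so small differences such as those of Igfbp7 and Igf1r depend on that scaling.

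**Figure D3:**
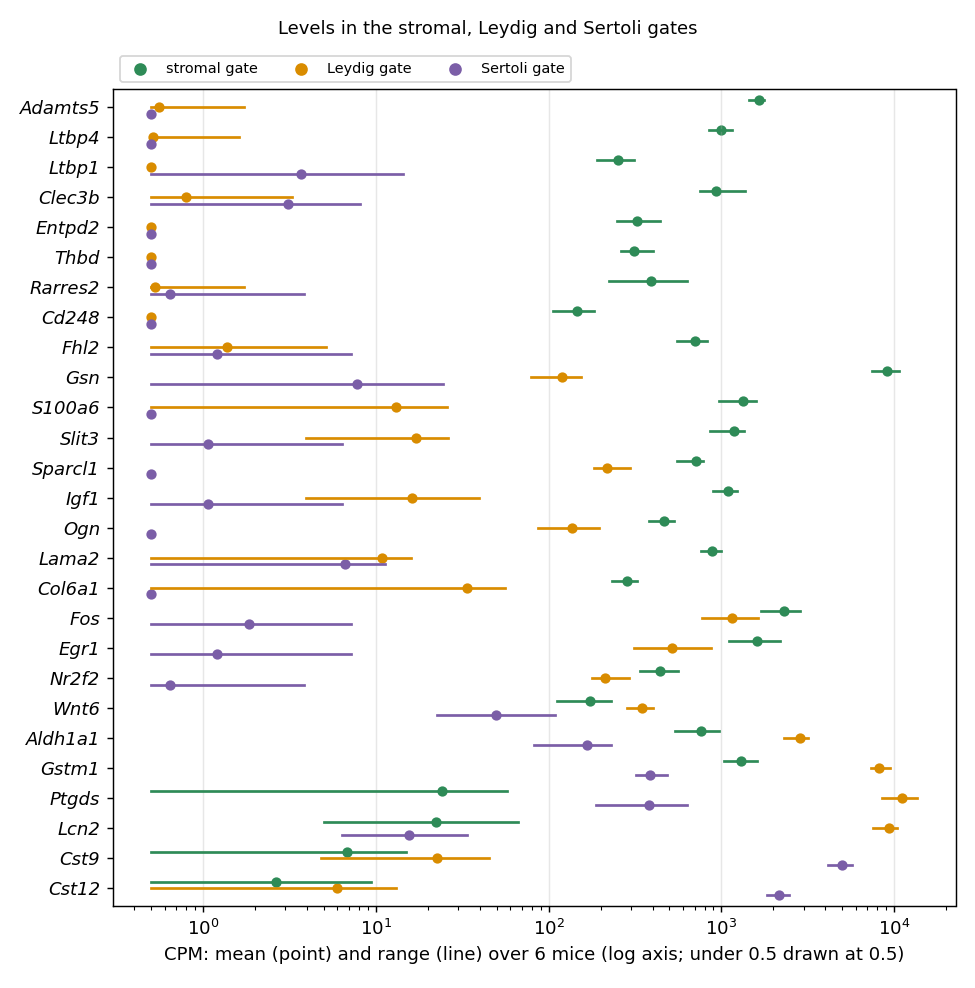
Levels of genes in the stromal, Leydig and Sertoli gates, in CPM relative to the UMIs of each gate on a log axis, with values under 0.5 drawn at 0.5. Points are means and lines the range over 6 mice, and the stromal range of Adamts5, Gsn and Igf1 lies above the Leydig and Sertoli ranges, while that of Ptgds and Lcn2 lies below the Leydig range.

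A gate for Sertoli cells, the supporting cells inside the tubules, was added after the data had been seen and held 869 barcodes, with median UMIs of 1080, 1148 and 1131 in the Nicotine mice and 1229, 1034 and 1080 in the Control mice. The stromal, muscle and spermatid sums were limited in it as in the Leydig gate. Malat1, a long RNA that stays in the nucleus, was at 16810 CPM in stromal cells, 18520 CPM in Leydig cells and 243 CPM in the Sertoli-gate barcodes. Whether those barcodes are whole cells, and what part this has in the comparison, was not tested. Of 3175 genes tested, 1128 were higher in stromal cells (35.5%) and 896 were lower (28.2%). Adamts5, Ltbp4, the calcium-binding protein gene S100a6 and the matricellular gene Sparcl1 had 0 UMIs in the Sertoli-gate barcodes and were at least 606-fold, 355-fold, 501-fold and 262-fold higher in stromal cells. The cystatin genes Cst9 and Cst12, which belong to a family of related copies, were lower in stromal cells, with 6.84 and 2.66 CPM in stromal cells and 4966 and 2166 CPM in the Sertoli-gate barcodes. All 12 tested basement membrane genes were called higher in stromal cells (median log2 difference 7.19) and all 12 tested mitochondrially encoded genes lower. With mitochondrial UMIs under 5%, the Sertoli gate kept 33 of 102, 51 of 104 and 73 of 134 barcodes in the Nicotine mice. In the Control mice it kept 111 of 193, 50 of 115 and 69 of 221, and the comparison was not rerun at this limit. The fitted difference minus the plain log2 ratio was 0.29 in the median gene here. With a higher minimum of UMIs per barcode, 1277 genes were called in place of 2024.

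Immediate early genes, whose transcription starts within minutes of a stimulus, were abundant in stromal cells. Fos, a subunit of the AP-1 transcription factor, was at 2308 CPM in stromal cells (1708 to 2869 over 6 mice) and 1161 CPM in Leydig cells, a log2 difference of 0.74 ± 0.11 (adjusted p = 7.74e-11). In germ cells it was at 3.00 CPM, and in Sertoli barcodes it rested on 2 UMIs. Of 23 tested immediate early genes, 17 were higher and 2 were lower in stromal cells than in Leydig cells, with a median log2 difference of 0.77. Egr1, a zinc-finger transcription factor, showed 1.38 ± 0.11 (adjusted p = 5.86e-30).

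The stromal cells themselves fell into 4 subgroups by clustering on 1000 variable genes, before whose choice the rule genes were not taken out. The genes that lead a subgroup were selected on the same cells and carry no test. A coarser setting gave 2 groups and a finer one 7. In the coarser setting 98.04% of subgroup 1 and 96.0% of subgroup 4 fell together, and 98.9% of subgroup 2 and all of subgroup 3 formed the other group.

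Subgroup 1 was the largest, with 204 cells (41.1%) and a median of 2069 UMIs, and was led by immediate early genes. The 29 genes of that list made up 3.29% of its UMIs, and 0.343%, 0.269% and 1.93% in subgroups 2, 3 and 4. Fos was at 4341 CPM in subgroup 1, against 157, 96.5 and 2593 CPM in subgroups 2, 3 and 4. Fosb, Junb and the antiproliferative gene Btg2 were at 2531, 3449 and 1433 CPM in subgroup 1, and at 282, 409 and 59.9 CPM in the other cells together. Cxcl1, a neutrophil chemokine, had 80 UMIs, all in subgroup 1. The subgroup made up 51.6%, 29.5% and 38.1% of stromal cells in the Nicotine mice and 43.0%, 37.7% and 45.2% in the Control mice, so the groups overlapped. Malat1 was at 13630 CPM in subgroup 1, against 18150, 26600 and 6954 CPM in subgroups 2, 3 and 4.

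The promoters of Fos, Fosb and Btg2, 3 of the genes that led subgroup 1, are shown as examples. They are RefSeq sequences of GRCm38.p6 from 250 bases before to 50 bases after the gene's start, on the gene's strand, with Fos at chr12:85473640-85473939 (plus strand), Fosb at chr7:19309996-19310295 (minus strand) and Btg2 at chr1:134079106-134079405 (minus strand). Capitals mark matches, on either strand, to the cAMP response element TGACGTCA, the TATA box TATAAA and the GC box GGGCGG, whose copies can overlap.
Fos: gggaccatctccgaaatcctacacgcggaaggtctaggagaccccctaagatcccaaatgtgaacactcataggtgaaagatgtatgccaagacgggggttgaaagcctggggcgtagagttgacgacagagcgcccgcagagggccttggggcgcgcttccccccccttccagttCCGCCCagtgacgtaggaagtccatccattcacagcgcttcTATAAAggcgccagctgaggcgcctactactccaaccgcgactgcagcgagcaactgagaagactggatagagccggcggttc
Fosb: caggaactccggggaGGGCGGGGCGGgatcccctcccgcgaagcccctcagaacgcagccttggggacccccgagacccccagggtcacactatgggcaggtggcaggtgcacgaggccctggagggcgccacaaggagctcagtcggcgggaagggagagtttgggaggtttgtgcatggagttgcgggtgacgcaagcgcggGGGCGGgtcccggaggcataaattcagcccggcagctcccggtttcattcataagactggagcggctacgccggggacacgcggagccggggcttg
Btg2: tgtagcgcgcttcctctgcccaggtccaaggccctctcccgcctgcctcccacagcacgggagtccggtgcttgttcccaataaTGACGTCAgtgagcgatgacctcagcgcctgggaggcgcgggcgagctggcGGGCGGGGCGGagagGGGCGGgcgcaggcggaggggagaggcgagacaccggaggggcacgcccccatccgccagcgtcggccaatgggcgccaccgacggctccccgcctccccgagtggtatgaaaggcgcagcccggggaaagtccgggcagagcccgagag
The GC box letters were in 21 of 25 immediate early promoters matched by symbol (84.0%) and in 38.2% of 27025 promoters of the same length. The cAMP response element letters were in 2 of the 25 (8.00%) and in 2.03% of all promoters, and the TATA letters in 6 of the 25 (24.0%) and in 15.7% of all. Junb and Jun also led subgroup 1, and their promoters, which are not shown, held 0 and 1 GC box and 0 cAMP response elements each. These are matches of letters and not measured binding sites.

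Subgroup 2 held 92 cells (18.5%) and subgroup 3 held 126 cells (25.4%). Subgroup 2 was led by the rule gene Tcf21, at 416 CPM against 140 CPM in the other cells. Next came Aox3, Lars and Ssr2, at 120, 126.5 and 205 CPM against 47.9, 50.4 and 79.9 CPM. The ligand gene Wnt6, which was not among its leading genes, was at 301 CPM, against 136, 153 and 175 CPM in subgroups 1, 3 and 4. Among the genes that led subgroup 3, the sodium leak channel gene Nalcn was at 193 CPM against 10.9 CPM in the other cells, the matricellular gene Ccn2 at 872 against 109 CPM, and the type IV collagen gene Col4a3 at 482 against 79.4 CPM. Cyp26b1 was at 1608 CPM and Fhl2 at 1451 CPM in subgroup 3, and Dcn at 2890 CPM, against 9149, 7196 and 7527 CPM in subgroups 1, 2 and 4. Cyp26b1 and Dcn belong to the rule that chose the cells. The 28 barcodes left out for their muscle sum also carried Cyp26b1, Fhl2 (1689 CPM), Col4a3 (627 CPM) and the integrin gene Itga9 (487 CPM).

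Subgroup 4 held 75 cells (15.1%), with the lowest median depth of 1329 UMIs. Crip2, Crip1 and Tppp3 led it after Slpi, at 311, 418 and 194 CPM against 55.9, 76.4 and 50.2 CPM in the other cells. Some genes known from adventitial fibroblasts were also among its leading genes. S100a6 was at 3671 CPM against 1106 CPM in the other cells, Clec3b at 2409 against 739 CPM, and Ly6a, which encodes the surface antigen Sca-1, at 515 against 140 CPM. The 10 adventitial marker genes made up 0.401% of its UMIs and between 0.144% and 0.192% in the other subgroups. Clec3b and Ly6a are on that list and also led the subgroup, so the sum is no separate support for an adventitial label, and S100a6 is not on it. Pi16, another gene of the list, had 9 UMIs in the subgroup, and the fibroblast gene Dpt had 0. It made up 17.7%, 14.1% and 19.0% of stromal cells in the Nicotine mice and 13.98%, 11.7% and 15.3% in the Control mice. All 57 UMIs of Slpi, an antiprotease gene, lay in 1 barcode of Control mouse 2, so that gene describes 1 cell.

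**Figure D4:**
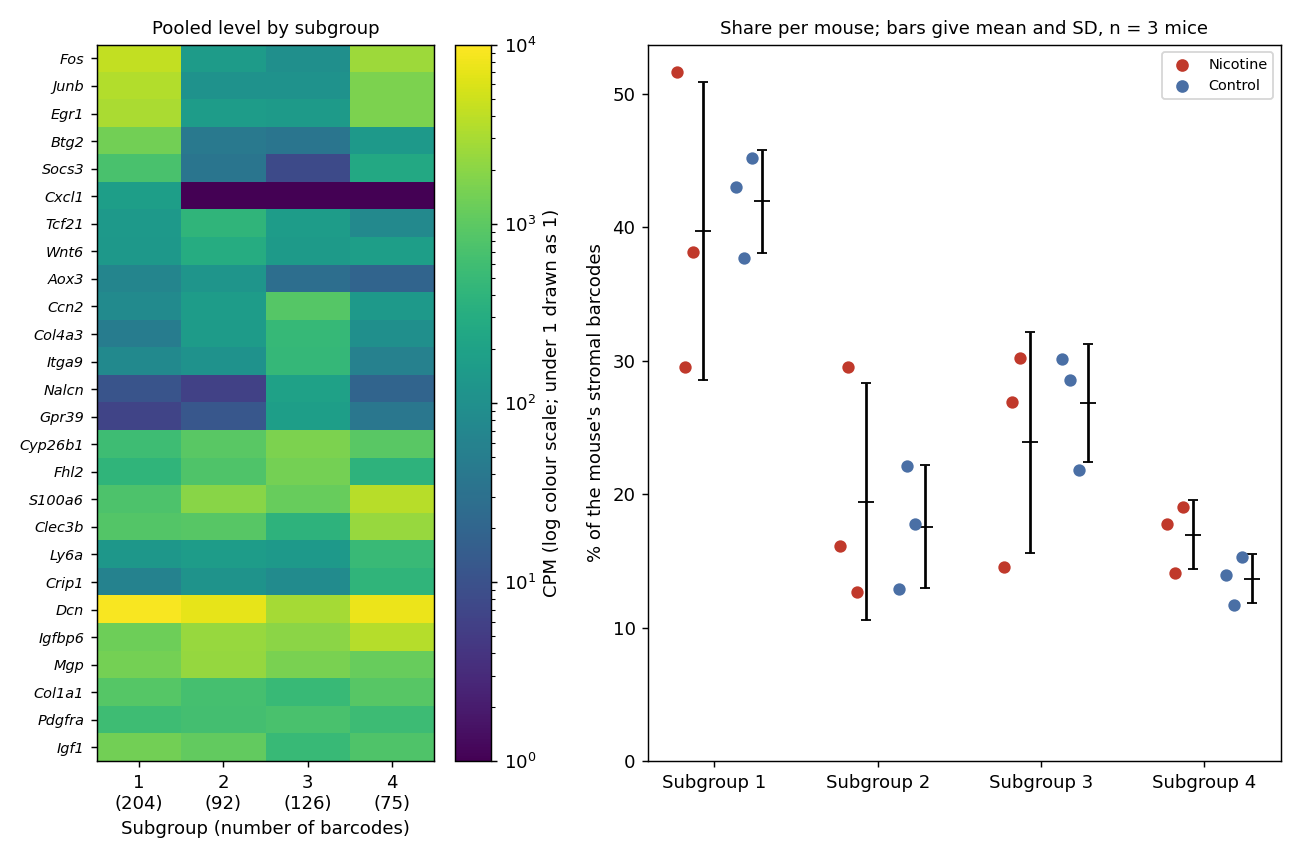
The 4 stromal subgroups: the left panel gives the pooled level of genes in CPM on a log colour scale, with values under 1 drawn as 1, and the right panel the share of the stromal cells of each mouse in percent, with the mean and SD (n = 3) and Nicotine left of Control. Fos stands high in subgroups 1 and 4, and the shares of Nicotine and Control mice overlap in all 4 subgroups.

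The effect of nicotine on stromal transcription was tested on UMIs summed per mouse over stromal cells. Of 3299 genes tested, 0 passed an adjusted p of 0.05 (0% called, edgeR quasi-likelihood), and the smallest adjusted p was 0.723. At an unadjusted p below 0.05 there were 200 genes (6.06% of those tested), and DESeq2 called 0 with 50 at an unadjusted p below 0.05. The median gene's standard error was 0.31 on the log2 scale and the median absolute difference 0.20, so at this depth differences of the median gene's size could not be told from the spread between mice. Leaving the rule genes out, 178 of 3285 genes were higher in every Nicotine mouse than in every Control mouse (5.42%) and 180 were lower (5.48%).

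The 6 genes of smallest p in each direction are given as values that did not pass, all with adjusted p = 0.723 (edgeR). Hils1, a linker histone of spermatids (chromosome 11, 94967593 to 94968456, plus strand, GRCm38), was at 66.7, 119 and 150 CPM in the Nicotine mice and 239, 226 and 241 CPM in the Control mice (log2 -1.08 ± 0.27). Dnajb8, a testis chaperone, was at 28.6, 59.4 and 46.8 CPM in the Nicotine mice and 115, 75.3 and 134 CPM in the Control mice (log2 -1.30 ± 0.37). Both had far higher levels in germ cells, at 1639 and 1692 CPM. The germ-enriched 1700003F12Rik, as well as 4930558C23Rik and 1700016H13Rik, stood at log2 -0.86, -1.27 and -1.23. Of the 126 lower genes at an unadjusted p below 0.05, 50 (39.7%) had a higher level in germ cells than in stromal cells, against 5 of the 71 higher genes (7.04%) and 18.9% of all tested genes. Germ cells here are the gated barcodes rich in spermatid genes, and other germ cells were not compared. The part of germ cell RNA in these differences was not tested.

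Rora, a nuclear receptor that acts in circadian and lipid control, had the smallest p among genes that were lower in Nicotine mice and more abundant in stromal than in germ cells. It was at 381, 336 and 271 CPM in the Nicotine mice and 528, 489 and 580 CPM in the Control mice (log2 -0.72 ± 0.21), and the groups did not overlap. Among the positive differences, Poldip2, which binds a DNA polymerase subunit, was at 114, 145 and 122 CPM in the Nicotine mice and 54.8, 67.7 and 67.2 CPM in the Control mice (log2 1.00 ± 0.31). Tfdp2, a partner of E2F cell cycle factors, was at 124, 98.9 and 150 CPM in the Nicotine mice and 49.8, 75.3 and 60.1 CPM in the Control mice (log2 0.98 ± 0.33). These 2 genes also did not overlap between the groups, as 10.9% of all genes tested did not. Maob, a mitochondrial enzyme that oxidises monoamines, was at 133, 165 and 215 CPM in the Nicotine mice and 120, 90.3 and 74.3 CPM in the Control mice (log2 0.85 ± 0.30). Sub1, Ube2j2 and Pdcd10 made up the rest, with log2 differences of 0.61, 0.77 and 0.93.

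**Figure D5:**
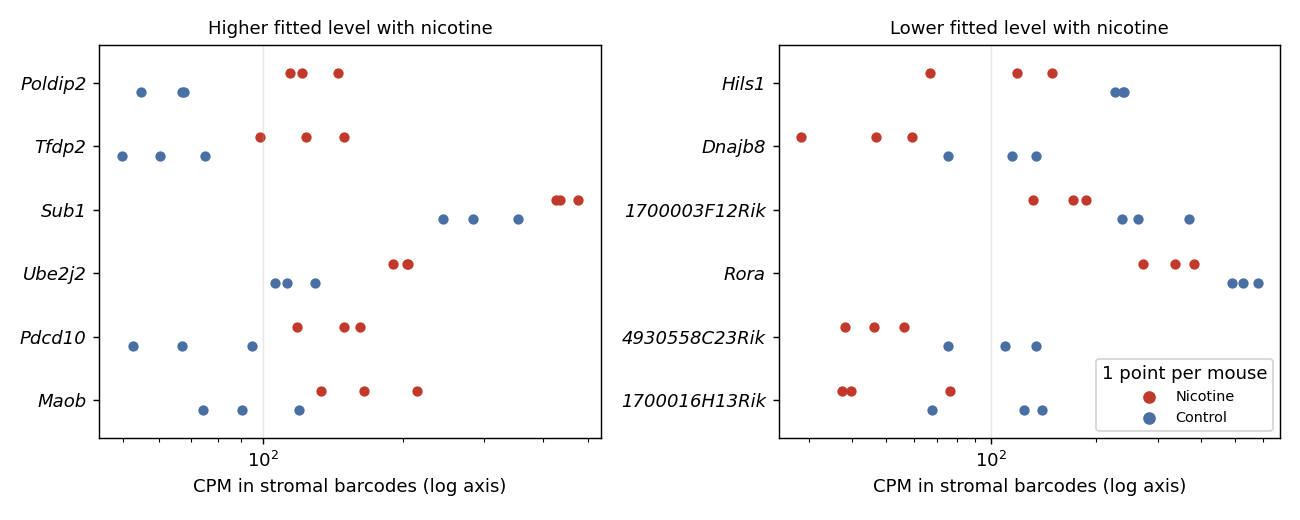
Levels in stromal cells of the 6 genes of smallest p in each direction, in CPM on a log axis, with 1 point per mouse and Nicotine above Control for each gene. Rora lies between 271 and 381 CPM in the Nicotine mice and between 489 and 580 CPM in the Control mice, and none of the 12 genes passed the adjusted threshold.

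Matrix and growth factor genes showed 0 calls under nicotine. Of 15 tested basement membrane genes, 6 were higher and 9 lower, with a median log2 difference of -0.09 beside 0.01 over all genes tested, and the median ran from -0.17 without Control mouse 2 to -0.0037 without Nicotine mouse 1. Of 4 tested fibrillar and associated collagen genes outside the rule, 2 were higher and 2 lower, and the 4 small leucine-rich proteoglycan genes had a median of 0.07, which ran down to 0.00060 on leaving out single mice. Of 7 tested elastic fibre genes, 2 were higher and 5 lower, with a median of -0.20. That median was -0.32 without Control mouse 2, came nearer to 0 without each other mouse (-0.03 without Nicotine mouse 2), and was 0.09 with equal cell numbers per mouse. In the insulin-like growth factor list, Igf1 was at 1153, 1194 and 1001 CPM in the Nicotine mice and 1231, 1054 and 892 CPM in the Control mice (log2 0.07 ± 0.19, adjusted p = 0.978 in edgeR). Igfbp3, a binding protein of the same axis, was at 114, 172 and 159 CPM in the Nicotine mice and 134, 67.7 and 60.1 CPM in the Control mice (log2 0.77 ± 0.33, unadjusted p = 0.0218 in edgeR).

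Of 23 tested immediate early genes, 22 had a lower and 1 a higher fitted level in Nicotine mice, with a median log2 difference of -0.26, beside 0.01 over all genes tested, and 0 calls. The summed level of the list overlapped, at 22560, 14010 and 15030 CPM in the Nicotine mice and 18420, 16880 and 22520 CPM in the Control mice. The count depended on single mice, with 14 lower and 9 higher (median -0.07) without Control mouse 3 and all 23 lower (median -0.45) without Nicotine mouse 1. It was 16 lower (median -0.13) without Nicotine mouse 2 and 15 lower (median -0.14) without Nicotine mouse 3. With no limit on the muscle sum, 17 were lower and 6 higher. Fos itself was at 2810, 1708 and 2125 CPM in the Nicotine mice and 2267, 2069 and 2869 CPM in the Control mice (log2 -0.14 ± 0.20). Fosl2, of the same family, was at 47.6, 39.6 and 56.2 CPM in the Nicotine mice and 94.7, 75.3 and 124 CPM in the Control mice (log2 -1.15 ± 0.37, adjusted p = 0.723 in edgeR).

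Signalling and defence lists gave a few differences past an unadjusted p of 0.05 and none past the adjusted one. Id1, a target of bone morphogenetic proteins, was at 200, 158 and 168 CPM in the Nicotine mice and 244, 324 and 244 CPM in the Control mice (log2 -0.62 ± 0.24). Cxcl14, a chemokine gene, was at 105, 106 and 112 CPM in the Nicotine mice and 44.8, 37.6 and 70.8 CPM in the Control mice (log2 0.94 ± 0.35), and did not overlap. Cxcl1 was at 28.6, 26.4 and 84.2 CPM in the Nicotine mice and 134, 67.7 and 99.1 CPM in the Control mice (log2 -1.24 ± 0.40), which overlapped. Of 22 tested xenobiotic and oxidative stress genes, 14 were higher and 8 lower, with a median of 0.16, which was smaller without each single mouse and lowest, at 0.03, without Nicotine mouse 1. Of 12 tested heat shock genes 5 were higher and 7 lower, and their median ran from -0.15 without Nicotine mouse 1 to 0.13 without Nicotine mouse 3. The 10 tested mitochondrially encoded genes had a median of -0.03, and single mice turned the direction. Without Control mouse 1 all 10 were lower (median -0.18), as they were with doublets removed, and without Nicotine mouse 3, 8 of 11 were higher (median 0.10).

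Of 16 nicotinic receptor subunit genes, 7 had a UMI in stromal cells and only Chrne, the epsilon subunit, had 10 or more. It was at 19.1, 72.5 and 112 CPM in the Nicotine mice and 94.7, 52.7 and 46.0 CPM in the Control mice (log2 0.09 ± 0.45), from 64 UMIs in all. Single mice turned the direction, with -0.36 without Nicotine mouse 3 and 0.46 without Nicotine mouse 1. Germ cells carried it at 263 CPM and stromal cells at 66.2 CPM, and the part of germ cell RNA in the stromal level was not tested.

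The difference between the nicotine effects in stromal and in Leydig cells, tested as an interaction with the mouse as a block, was added after the data had been seen. It passed in 0 of 6934 genes (0% called, edgeR), with 361 at an unadjusted p below 0.05, and in 0 by DESeq2 with 45. Without Nicotine mouse 2, 1 gene was called, Tmsb4x, which encodes an actin-binding peptide, with a log2 nicotine effect 2.14 ± 0.31 higher in stromal than in Leydig cells. Without Control mouse 3, 1 gene was called, Ly6k, which encodes a surface protein of the Ly6 family (2.24 ± 0.44 higher). Both were named after their values were seen.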

How the data were processed

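The authors deposited UMI counts per gene and barcode for 3 Nicotine and 3 Control testes, made with Cell Ranger 7.2.0 on GRCm38 (mm10), per the submitters' processing notes. The members, gene lists and tests were chosen with earlier results of these data known. The labels call the samples biological replicates. Barcodes with at least 500 UMIs and under 20% mitochondrial UMIs were kept, and doublets were removed only as an alternative, by Scrublet score. UMIs of each gate were summed per mouse and tested with edgeR 4.0.16 in R 4.3.3 (quasi-likelihood, TMM scaling, Benjamini-Hochberg, adjusted p below 0.05). Alternatives were DESeq2 1.42.0, other scaling, other filters on barcodes and genes, equal cell numbers, the replicate block and leaving out each mouse. Values in CPM are counts per 1000000 UMIs of a gate in a mouse. Shares were compared by exact permutation tests over mice. Subgroups came from Leiden clustering in scanpy 1.11.5 (15 components, 15 neighbours, resolution 0.5). Named genes were the rule genes, the 6 smallest p per direction with a mean of at least 10 CPM, up to 4 of the most abundant genes of each list, and the 10 largest folds per direction between gates. Other genes (Gsn, Malat1, Fosl2 and subgroup genes among them) were named after their values were seen. Counting intervals (95%) and the floor of 3 counts cover counting error only. Mice of the same replicate number were not treated as pairs in the main tests. Their deviations from the group means correlated at -0.06, 0.10 and -0.06, and those of other number combinations at -0.09 to 0.13. Deviations within groups of 3 cannot settle whether the samples were paired. Positions come from GENCODE and promoters from RefSeq. The sequencing depth was set by the libraries as deposited and was not equalised, except where thinning to 500 UMIs is stated.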

Additional observations from a re-analysis of the deposited data

How the results depend on the processing

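The nicotine effect in stromal cells gave 0 calls in every one of the alternatives run, which were other filters on barcodes and genes, other scaling, DESeq2, equal cell numbers and leaving out each mouse. The 17 genes followed for it kept their direction in all 286 of their alternatives, and none passed. They were chosen from results on the same counts that the alternatives reuse, so the kept direction is no separate support. Each had between 13 and 18 alternatives, because the gene filter left some genes out of some settings. The log2 ratio of the stromal share of kept barcodes ranged from -0.58 to -0.29 when single mice were left out, that of the share among gates from 0.05 to 0.27, and that of median UMIs from -0.31 to -0.13. With mt- UMIs under 5%, or with no limit on the muscle sum, the groups' shares of kept barcodes did not overlap (log2 ratio -0.48 in both, exact permutation p = 0.1, the smallest possible). The counts of genes differing between gates ranged from 2943 to 3477 for Leydig and from 1804 to 2127 for Sertoli when single mice were left out. The Sertoli count was 5629 with no filter on low counts, where more genes are tested, and 1277 with a higher minimum of UMIs per barcode. DESeq2 called 2806 and 1551 genes. The interaction count ranged from 0 to 1 on leaving out single mice. With the replicate number as a block, the nicotine effect again gave 0 calls and 184 genes at an unadjusted p below 0.05, the log2 ratio of the share was -0.44 and that of median UMIs -0.21 (exact sign-flip p = 0.5 each, where 0.25 is the smallest possible), and the share among gates was 0.19. The gate comparisons without the mouse as a block gave 3360 and 1956 genes. The planned comparison with a muscle gate was not run because the gate held 2 barcodes. Depth limits low genes: 3 counts over all stromal cells equal 3.06 CPM.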
